A study of Mus musculus with 57 samples.

Results

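The striatum of young adult mice, taken on postnatal day 60, was set against the striatum of newborn mice, taken on postnatal day 4. Every striatal array of the series was used, 13 of day 60 and 15 of day 4, which are 28 of the 57 arrays; the other 29 arrays hold tissue of the preoptic area together with the bed nucleus of the stria terminalis (BNST/POA). All mice were of the C57BL/6J strain and fell into 3 treatment groups. XX+T were females given testosterone propionate at birth, XX were females given the oil vehicle, and XY were males given the oil vehicle. At day 60 there were 4 XX+T, 5 XX and 4 XY arrays, and at day 4 there were 5 arrays of each group. All day 60 mice had been gonadectomized before puberty and then carried a testosterone capsule under the skin, whereas day 4 mice had neither operation. Age can therefore not be told apart from gonadectomy and the implant in any value below. Each array held RNA from a pool of 3 animals, and the age difference was averaged over the 3 treatment groups.

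The striatum is the main input station of the basal ganglia. Most of its neurons are GABAergic spiny projection neurons, which carry the D1 or the D2 dopamine receptor and turn dopamine and cortical glutamate signals into changes of cyclic AMP, calcium and phosphorylation. A small share are interneurons, among them fast-spiking cells with parvalbumin, cholinergic cells, and cells with neuropeptide Y and somatostatin. In a newborn mouse, glial cells still divide, axons and spines still form and myelin is nearly absent. The account below leaves myelin and the growth of young neurons aside and turns to the rest of the array.

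Levels are normalized log2 intensities, so a difference of 1 log2 unit is a 2-fold difference in signal, and every difference is day 60 minus day 4 with the SE of the fit. A probe was called at an adjusted p under 0.05 (limma, Benjamini-Hochberg over the 13731 probes kept). A probe counts as detected on an array where its detection p is under 0.05. Of 11 genes fixed as markers of the striatum, 8 had a named probe that was kept (Bcl11b, Drd1, Drd2, Foxp1, Pde10a, Ppp1r1b, Rgs9 and Tac1). All 8 were detected on every striatal array of both ages and were at both ages brighter there than in the BNST/POA, by 1.65 to 5.93 log2 units. Adora2a and Penk are named only.

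The arrays of the ages differed in how many probes they detected. Day 60 arrays detected 11258 to 13895 probes (median 11930) and day 4 arrays 12926 to 13643 (median 13415). Raw log2 intensities had an interquartile range of 1.12 to 1.95 on day 60 arrays and 1.70 to 2.14 on day 4 arrays. What part these differences have in the results was not tested. A pair of day 60 arrays stood apart from the rest, those labelled XX+T pool 3 and XX+T pool 6. On a scale where 0% is the mean of all other day 4 arrays and 100% the mean of all other day 60 arrays, pool 3 lay at 53.2% and pool 6 at 76.0%. The other 11 day 60 arrays lay between 97.9% and 113.9% and the day 4 arrays between -6.4% and 12.4%. Pool 3 also went against its label, since its Y-linked Eif2s3y and Kdm5d had log2 intensities of 8.30 and 7.38, against 6.86 to 6.95 and 6.92 to 7.05 on the other day 60 XX+T arrays. Some results that rest on these arrays are given with and without them. Where no value without them is given, the result includes them.

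**Figure D1:**
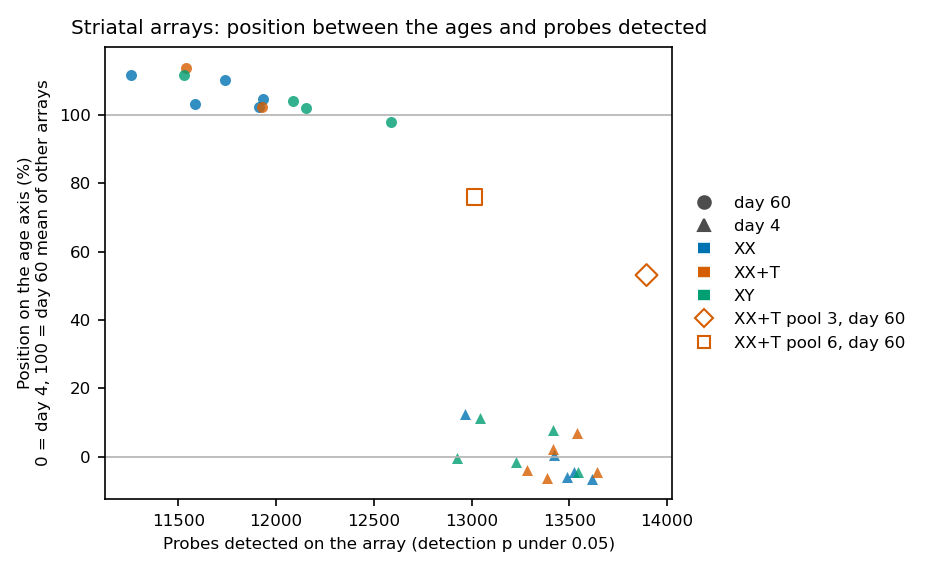
Position of each of the 28 striatal arrays between the ages (vertical axis, percent, from all called probes) against the number of probes it detected (horizontal axis); circles are day 60, triangles day 4, colours the treatment groups, and open symbols the day 60 arrays XX+T pool 3 and pool 6. Of the day 60 arrays, 11 lie between 97.9% and 113.9%, pool 6 lies at 76.0% and pool 3 at 53.2%, and this pair detected 13014 and 13895 probes.

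Most of the measured transcriptome differed between the ages. Of the 13731 probes kept, 5240 (38.2%) were higher and 5679 (41.4%) lower at day 60, and the median size of a called difference was 0.52 log2 units. Differences of at least 1 log2 unit were found for 1071 probes that were higher (7.8%) and 1123 that were lower (8.18%). Scaling the arrays by their medians alone, without quantile normalization, gave 3271 probes higher and 7590 lower, and the median difference over all probes was then -0.23 and not -0.01. Directions of small differences therefore depend on the scaling, and with median centring 2394 genes were higher and 5164 lower at 1 probe per gene. Without XX+T pools 3 and 6 the counts were 5452 higher and 5875 lower. For 3482 probes (25.4%) no day 60 array fell within the range of the day 4 arrays, and without that pair of arrays this held for 5911 probes. At 1 probe per gene, 3816 of 9560 genes were higher and 3844 lower, with a median of 0.01, and the counts of gene lists below are to be read against these. A called difference in bulk tissue can come from fewer cells of a type or from less RNA per cell, and these cannot be told apart.

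Outside the list of 20 oligodendrocyte and myelin genes, the largest rise was that of Pvalb, the calcium buffer of fast-spiking interneurons. Its lowest, median and highest log2 intensities were 12.37, 14.33 and 14.68 on the day 60 arrays, against 7.26, 7.62 and 8.47 on the day 4 arrays. The ages did not overlap, and the difference was 6.41 ± 0.17 (adjusted p = 3.2e-22). XX+T pool 3 was the lowest and XX+T pool 4 the highest day 60 array. Pvalb is also in the list of the pallidum, and the part of neighbouring tissue in its rise was not tested. Other genes with large rises outside that list have varied roles. The list does not hold every gene of oligodendrocytes, and whether the genes below rose in those cells was not tested. Gng13, a G protein gamma subunit, reached 12.89 to 14.88 at day 60 and 9.67 to 11.42 at day 4, a difference of 3.97 ± 0.17. Cd59a, an inhibitor of the complement attack complex, rose by 3.72 ± 0.12, Tesc, a calcium-binding protein, by 3.65 ± 0.09, and Cryab, a small heat shock protein, by 3.45 ± 0.09. The alarmin Il33 had 10.56 to 11.31 at day 60 and 7.33 to 7.67 at day 4, with a difference of 3.40 ± 0.06. Ppp1r14a, an inhibitor of myosin phosphatase, was detected on no day 4 array, and its signal at day 60 was at least 9.71-fold higher. Such bounds set the day 60 mean against each dim array's lowest detected signal or the probe's own signal, whichever was higher. Evi2a, Pdlim2, Mnat1, Plekhb1, Grb14 and Mcph1 had differences of 3.18 to 4.56. With Scn4b and Pmch below they complete the largest rises, which were ranked only among genes whose ages did not overlap. Of 4 probes for Mcph1, a pair moved the other way by -0.15 and -0.32, and the second probe for Grb14 did not pass the test (-0.07).

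Among genes whose ages did not overlap (25.4% of all probes), the largest fall outside the list of immature neurons was that of Islr2. This is a membrane protein with leucine-rich repeats that acts in axon growth. Day 60 arrays had 8.37, 8.96 and 9.46 (lowest, median and highest), against 12.67, 13.25 and 13.65 at day 4, a difference of -4.19 ± 0.11 (adjusted p = 2.4e-22). Cxadr, an adhesion molecule and virus receptor, fell by 3.87 ± 0.09 on its brightest probe, with -3.91 and -1.11 on its others. Nav1, a microtubule regulator of migrating neurons, had 8.64 to 10.60 at day 60 and 11.92 to 13.37 at day 4. Lack of overlap was a condition for every gene named in this paragraph and is not a result about them. Slc29a4, a monoamine transporter, was detected on 9 of 13 day 60 arrays and all 15 day 4 arrays and differed by -3.27 ± 0.12. The small GTP-binding protein Rnd3 fell by 3.15 ± 0.11. Lmnb1, a lamin of the nuclear envelope, differed by -3.14 ± 0.10 and Atat1, the alpha-tubulin acetyltransferase, by -3.07 ± 0.11. Other large falls were those of Dcakd, Sbk1, Nectin3, Enc1, Klf7, Gm5643, Mycl and Faap100, with differences of -3.11 to -2.93. Nectin3 had further probes at -1.28 and -0.09.

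Genes of striatal projection neuron signalling were mostly higher at day 60. Of 43 genes listed, 28 were kept, of which 20 rose and 3 fell, with a median of 0.53 against 0.01 over all genes. XX+T pool 3 was the highest day 60 array for 21 of the 28. Without pools 3 and 6 the counts were 19 and 7 and the median 0.50. Scn4b, the sodium channel beta 4 subunit, stood out with 12.38, 12.85 and 14.08 at day 60, against 8.08, 8.69 and 9.42 at day 4. The difference was 4.25 ± 0.13 (adjusted p = 8.0e-21), and no array of one age reached the range of the other. Calcium and G protein signalling genes followed. Hpca, the calcium sensor hippocalcin, had 13.47 to 14.72 at day 60 and 12.16 to 12.82 at day 4 (1.66 ± 0.09). Gnb5 and Rgs9, which form the complex that turns off dopamine receptor signals, rose by 1.41 ± 0.05 and 1.35 ± 0.10, and Ptpn5, the striatum-enriched phosphatase STEP, by 1.33 ± 0.08. The ages did not overlap for any of these 4 genes.

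Dopamine receptors rose less. Drd1 had 11.73, 12.25 and 12.71 at day 60, against 10.52, 11.16 and 11.74 at day 4, with a difference of 1.04 ± 0.11 (adjusted p = 4.8e-09) and a slight overlap. Drd2 had 9.41, 10.24 and 11.16 at day 60, against 9.11, 9.59 and 9.83 at day 4, so that the ages overlapped. Its difference was 0.75 ± 0.13, and 0.54 without XX+T pools 3 and 6, but with median centring it was 0.22 and did not pass (adjusted p = 0.25). Ppp1r1b, the dopamine-regulated phosphatase inhibitor DARPP-32, was bright at both ages, with 13.38 to 14.91 at day 60 and 13.56 to 14.09 at day 4. Its difference of 0.25 ± 0.10 (adjusted p = 0.026) did not pass without the pair of arrays (0.10, adjusted p = 0.20). Dimmer probes for Ppp1r1b had 0.94 (adjusted p = 1.4e-07) and 0.34 (adjusted p = 0.0044), so the size of its rise depends on the probe. Tac1, the substance P precursor of D1 neurons, rose by 0.50 ± 0.08. Pdyn, the dynorphin precursor of the same cells, had a difference of -0.12 ± 0.11 (adjusted p = 0.30), and -0.30 without the pair, where it passed, as it did with median centring (-0.27, adjusted p = 0.044). Pde10a, the striatal cyclic nucleotide phosphodiesterase, had a difference of -0.01 ± 0.12 (adjusted p = 0.92), against -0.21 without the pair (adjusted p = 0.028) and -0.53 with median centring (adjusted p = 0.0050), both called as falls.

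Within the list the largest fall was that of Gng7, the G protein gamma subunit that pairs with the striatal G alpha olf. Its brightest probe had 11.60 to 14.13 at day 60 and 13.67 to 14.43 at day 4 (-1.36 ± 0.16), and XX+T pool 3 was the array that overlapped. A second probe for Gng7 moved the other way by 0.80, so its direction is uncertain. Cnr1, the cannabinoid receptor, rose by 0.69 ± 0.08 with no overlap, and Rgs4, Itpka, Actn2 and Syndig1l rose by 0.64 to 0.90. With median centring Actn2 (0.13, adjusted p = 0.40) and Syndig1l (0.30, adjusted p = 0.12) did not pass.

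**Figure D2:**
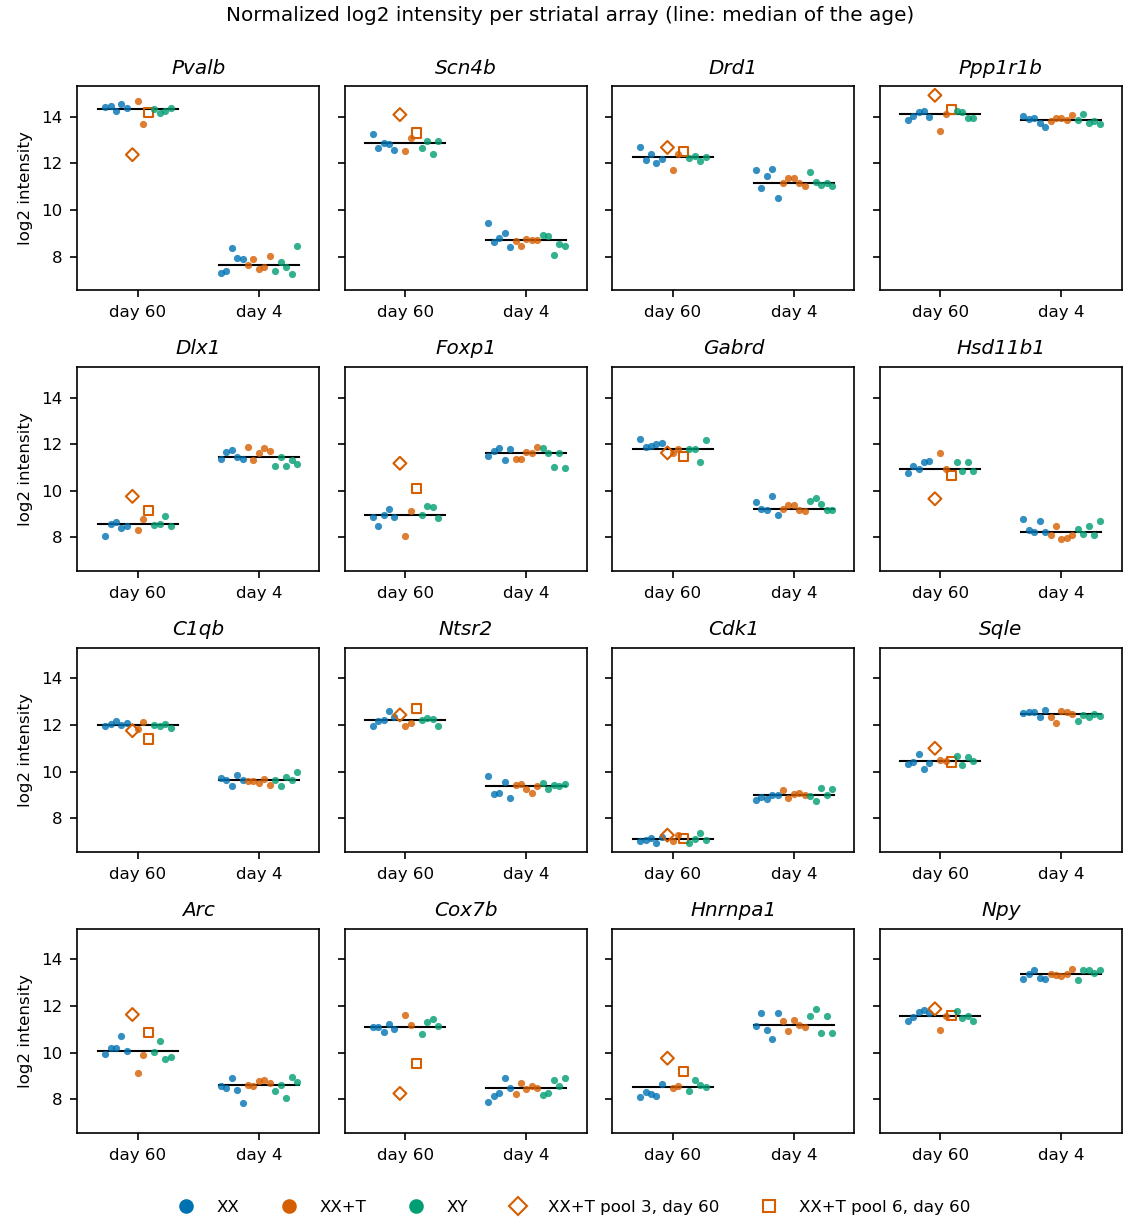
Normalized log2 intensity (vertical axis) of 16 genes on each striatal array, day 60 left of day 4 in each panel; colours are the treatment groups, open symbols the day 60 arrays XX+T pool 3 and pool 6, and the line the median of the age. The genes were picked for display, so their share without overlap is not a result. The ages do not overlap for 12 of them (25.4% of all probes) and overlap for Drd1, Ppp1r1b, Foxp1 and Cox7b. Ppp1r1b lies at 13.38 to 14.91 at day 60 and 13.56 to 14.09 at day 4, and pool 3 lies among the day 4 arrays for Cox7b and Foxp1.

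The transcription factors that specify striatal neurons went down together. All 19 of the 30 listed that were kept fell, with a median of -0.86, against 41.4% of probes lower on the whole array. The homeobox factor Dlx1, which guides interneuron and projection neuron fate, had 8.07, 8.56 and 9.76 at day 60, against 11.08, 11.45 and 11.89 at day 4. The ages did not overlap and the difference was -2.78 ± 0.10 (adjusted p = 1.0e-18). Bcl11b, known as CTIP2 and needed for projection neuron differentiation, had 10.04, 10.72 and 12.99 at day 60, against 12.56, 13.45 and 13.73 at day 4. Overlap came from XX+T pool 3 alone, since the 11 arrays other than pools 3 and 6 reached 11.11 at most. The difference was -2.38 ± 0.21, and -2.73 without the pair. Bcl11a fell by 2.73 ± 0.12 and Zfp521 by 1.73 ± 0.09. Foxp1, a forkhead factor of projection neurons, had 8.06 to 11.18 at day 60 and 10.99 to 11.87 at day 4 (-2.33 ± 0.20), and 9.34 was its highest value on the other 11 arrays. Pbx3 (-1.61), Dlx2 (-1.33), the retinoid receptor Rxrg (-1.09), Meis1 (-0.93) and Foxp2 (-0.80) fell as well, and Six3 had the smallest fall, -0.17.

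Cholinergic and dopaminergic genes were mixed. Of 22 listed, 12 were kept, of which 7 rose and 4 fell. Chat, which makes acetylcholine in the giant interneurons, had 9.42, 9.74 and 10.16 at day 60, against 7.36, 7.56 and 7.64 at day 4, without overlap (2.20 ± 0.05, adjusted p = 5.4e-23). Slc5a7, the choline transporter of the same cells, rose by 0.76 ± 0.10, whereas Slc18a3, their vesicular transporter, fell by 0.22. The muscarinic receptor Chrm2 rose by 1.10 ± 0.12 and the nicotinic subunit Chrna4 fell by 0.92 ± 0.10. The overlap between the ages came from XX+T pool 3 for Chrm2 and from XX+T pool 6 for Chrna4. Maob, an enzyme of dopamine breakdown, rose by 0.79 ± 0.08.

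Among interneuron genes, 12 of 19 listed were kept, with 5 higher, 5 lower and a median of -0.01. Besides Pvalb and Chat, Cck had 10.10, 10.71 and 11.64 at day 60, against 7.74, 8.40 and 11.15 at day 4 (2.06 ± 0.26), and the ages overlapped. The GABA-synthesizing enzyme Gad1 rose by 1.10, and Slc32a1, which loads GABA into vesicles, fell by 0.47. Npy moved the other way from Pvalb. Neuropeptide Y signal was 10.98, 11.59 and 11.88 at day 60, against 13.12, 13.38 and 13.60 at day 4, a difference of -1.80 ± 0.08 without overlap. Sst, made by the same interneurons, had a difference of -0.12 and did not pass. The transcription factor Nkx2-1, which specifies interneurons from the medial ganglionic eminence, was detected on 6 of 13 day 60 arrays and 15 of 15 day 4 arrays (-0.87 ± 0.07).

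Receptor and channel genes moved subunit by subunit. Of the GABA-A receptor and chloride transport genes, 10 of 20 listed were kept, with 5 higher and 3 lower and a median of 0.12 (-0.13 with median centring). Gabrd, the delta subunit of extrasynaptic receptors, had 11.23, 11.81 and 12.22 at day 60, against 8.98, 9.22 and 9.79 at day 4 (2.47 ± 0.09, adjusted p = 2.2e-19). Glra2, the fetal glycine receptor subunit, had 9.50, 10.49 and 10.92 at day 60, against 11.39, 11.62 and 11.97 at day 4 (-1.29 ± 0.11). For neither gene did the ages overlap. Slc12a5, the chloride exporter KCC2 that marks mature neurons, was near the detection limit on both ages (detected on 8 of 13 and 9 of 15 arrays) with a difference of 0.23 ± 0.07. Slc12a2, the importer NKCC1, rose by 1.06 ± 0.07, and Gabrb1 fell by 0.89 ± 0.18.

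Glutamate receptor genes were sparsely measured. Only Grin2c of 7 NMDA receptor subunits was kept (0.24 ± 0.06), and with median centring it did not pass (0.09, adjusted p = 0.12). Of AMPA and kainate receptor genes, 10 of 14 listed were kept, with 1 higher and 5 lower. The AMPA receptor auxiliary subunit Cacng4 had 7.36, 8.03 and 9.50 at day 60, against 9.58, 10.35 and 10.68 at day 4 (-2.03 ± 0.15), and the kainate receptor subunit Grik1 fell by 0.95 ± 0.08. Gria2, the subunit that keeps AMPA receptors closed to calcium, had -0.26 ± 0.09 (-0.41 without pools 3 and 6). Grm8 and Grm7, presynaptic metabotropic receptors, differed by 0.48 ± 0.05 and -0.71 ± 0.07.

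Of 4 kept sodium channel genes, Scn2b (2.50 ± 0.10) and Scn1a (2.04 ± 0.09), both parts of adult-type channels, rose and Scn3b fell (-1.60 ± 0.10), each without overlap. Scn8a did not pass the test. Potassium and HCN channel genes gave 12 rises and 7 falls among 23 kept of 37 listed. Kcnab1, a beta subunit that speeds inactivation, had 13.25 to 13.89 at day 60 and 11.18 to 11.84 at day 4 (2.06 ± 0.08), with 1.56 and 0.36 on its other probes. Kcnj4, an inward rectifier of projection neurons, rose by 1.24 ± 0.13, and Hcn3 fell by 1.64 ± 0.06 on its brightest probe but had -0.02 on both others. Among calcium channel genes, 9 of 17 kept rose and 3 fell, against 5 and 4 with median centring. The beta subunits Cacnb4 (2.00 ± 0.08) and Cacnb2 (1.53 ± 0.10) led, though their second probes had 0.14 and -0.02.

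Of 22 kept genes of synaptic vesicles and release (31 listed), 6 rose and 13 fell, with a median of -0.18. XX+T pool 3 was the highest day 60 array for 18 of the 22, and without pools 3 and 6 the counts were 5 and 14 and the median -0.34. The target membrane protein Stx1a, a syntaxin of vesicle fusion, had 10.06, 10.42 and 11.45 at day 60, against 12.13, 12.30 and 12.49 at day 4 (-1.77 ± 0.10, adjusted p = 1.0e-14), and the ages did not overlap. Vamp1, the vesicle partner found in fast neurons, rose by 1.22 ± 0.08, with 1.43, 0.10 and 0.17 on further probes, and Vamp2 fell by 0.61. The vesicle protein Sv2a had 10.88 to 13.45 at day 60 and 12.24 to 13.14 at day 4 (-1.14 ± 0.19). Its overlap came from pools 3 and 6, and without them the difference was -1.49.

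Of 23 kept genes of the postsynaptic density (32 listed), 13 rose and 9 fell, with a median of 0.38. The counts were 12 and 10 without the pair (median 0.23) and 9 and 10 with median centring (median 0.04), so the list had no direction that held under each scaling. Dlgap2, a scaffold under PSD-95, had 9.34, 9.68 and 10.57 at day 60, against 8.21, 8.49 and 8.85 at day 4 (1.25 ± 0.08). The kinase subunits of CaMKII parted. Camk2a rose by 0.96, while Camk2b had 11.68, 12.28 and 14.39 at day 60, against 13.21, 13.72 and 13.93 at day 4 (-1.20 ± 0.17). Without pools 3 and 6 the day 60 arrays reached 12.66 at most for Camk2b, below every day 4 array. The adhesion protein of inhibitory synapses Nlgn2 fell by 1.39 ± 0.14 and Nrxn2 by 1.15 ± 0.15, and the scaffold Homer1 rose by 1.00 ± 0.06, with 0.64 and -0.13 on its other probes.

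Markers of tissue near the striatum were not the same at the ages. Of 8 kept genes of hypothalamic and preoptic neurons, 7 were higher at day 60 and none lower (median 1.23), and 3 of the 8 were detected on no day 4 array. Averaged over the list, the day 60 arrays had 7.63 to 10.12 (median 8.62) and the day 4 arrays 7.31 to 7.44 (median 7.37). Pmch, the hypothalamic melanin-concentrating hormone precursor, had 7.78, 9.97 and 13.50 at day 60, against 6.92, 6.98 and 7.16 at day 4, where no array detected it. Its day 60 signal was at least 7.97-fold higher, and the highest arrays were XX+T pool 4 with 13.50 and pool 6 with 13.25. Avp, the vasopressin precursor, was detected on 12 of 13 day 60 arrays and no day 4 array and was at least 3.41-fold higher.

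The array XX+T pool 4 had the highest mean of the hypothalamic and preoptic neurons list, 10.12, and among day 60 arrays the lowest of the striatal projection neuron signalling list, 10.75. Vip (1.62 ± 0.10), Trh (1.43 ± 0.14), Gal (1.03 ± 0.12) and Oxt (0.73 ± 0.12) of the same list rose too. The glutamate transporter Slc17a6, which striatal neurons do not use, rose by 1.56 ± 0.24 with 12.10 and 11.97 on XX+T pools 6 and 4, and Slc17a7, its cortical counterpart, by 1.34 ± 0.21 with 10.84 on pool 3. The cortical list had means of 7.62 to 8.61 at day 60 and 7.49 to 8.47 at day 4. Choroid plexus and ependyma had 8.69 to 10.06 and 8.08 to 9.96, and pallidum, which holds Pvalb, 8.69 to 9.35 and 8.02 to 8.30. Of 6 kept pallidum genes, however, 2 rose and 3 fell, with a median of -0.42. Blood genes had means of 9.07 to 9.82 at day 60 and 9.37 to 10.47 at day 4, and of 5 kept none rose and 3 fell, among them Alas2 (-1.02 ± 0.13) and Hba-a1 (-0.71 ± 0.10). The part of RNA from neighbouring tissue in the other results was not tested.

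**Figure D3:**
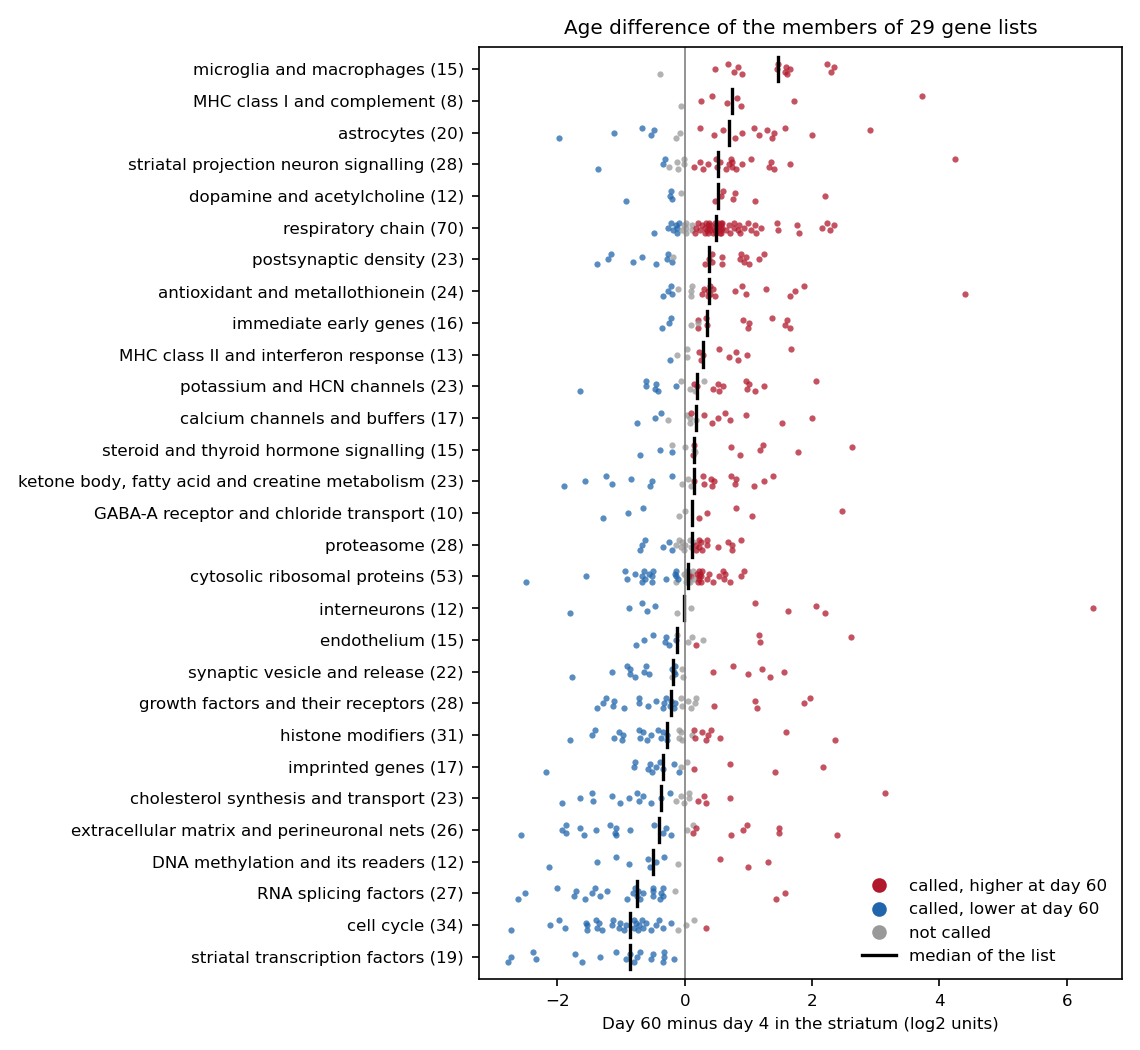
Age difference in the striatum (horizontal axis, day 60 minus day 4, log2 units) of the kept members of 29 gene lists, with the number of kept members in parentheses; each point is 1 gene, red called higher, blue called lower, grey not called, and black bars mark list medians. Medians run from -0.86 for striatal transcription factors and for the cell cycle to 1.47 for microglia and macrophages.

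Astrocyte genes were mostly higher at day 60. Of 25 astrocyte genes listed, 20 were kept, with 13 higher and 5 lower and a median of 0.70. The counts were 12 and 7 without XX+T pools 3 and 6 (median 0.62) and also with median centring (median 0.46). Ntsr2, a neurotensin receptor of astrocytes, had 11.96, 12.24 and 12.70 at day 60, against 8.88, 9.39 and 9.81 at day 4 (2.91 ± 0.09, adjusted p = 1.5e-20). Slc1a2, the main glutamate uptake transporter, rose by 1.99 ± 0.10, and Cldn10, Mertk and Aldoc rose by 1.36 to 1.57. Others fell. Vim, the intermediate filament of radial glia, had 7.40, 7.84 and 8.91 at day 60, against 9.28, 9.95 and 10.25 at day 4 (-1.98 ± 0.12), and the glial transcription factor Sox9 fell by 1.11. Slc1a3, another glutamate transporter of astrocytes, fell by 0.49. Ages did not overlap for Ntsr2, Slc1a2 or Vim.

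Microglial genes rose as a group. Of 15 kept of 20 listed, 14 rose and none fell, with a median of 1.47 (1.61 without pools 3 and 6, where 14 rose and 1 fell), against 38.2% of probes higher on the whole array. C1qb, a chain of the complement starter C1q, had 11.40, 11.99 and 12.19 at day 60, against 9.37, 9.64 and 9.99 at day 4 (2.30 ± 0.07, adjusted p = 2.3e-21). Tyrobp and Trem2, an adaptor and its lipid-sensing receptor, rose by 2.35 ± 0.13 and 2.24 ± 0.12. Tmem119, specific to resident microglia, was detected on 9 of 15 day 4 arrays and on every day 60 array, with 8.74 to 9.40 at day 60 and 7.23 to 7.37 at day 4 (1.65 ± 0.05). Aif1, the marker IBA1, rose by 1.61 ± 0.09, P2ry12 by 0.90 and Cx3cr1 by 0.84. The ages did not overlap for any of these 7 genes. Laptm5 did not pass (-0.40).

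Genes of MHC class I and complement, 8 kept of 15 listed, gave 7 rises and no fall, with a median of 0.74. H2-T23, the mouse Qa-1 molecule, had 8.77 to 9.76 at day 60 and 7.58 to 8.02 at day 4 (1.71 ± 0.08). B2m, the light chain of MHC class I, had 10.98, 11.67 and 12.53 at day 60, against 10.60, 10.73 and 11.15 at day 4, with a small overlap (0.88 ± 0.10). Its promoter is shown because the light chain is a classic interferon target, with the single match to the interferon-stimulated response element in capitals (RefSeq, build GRCm38.p6, chr2:122147517-122147716, plus strand).
B2m: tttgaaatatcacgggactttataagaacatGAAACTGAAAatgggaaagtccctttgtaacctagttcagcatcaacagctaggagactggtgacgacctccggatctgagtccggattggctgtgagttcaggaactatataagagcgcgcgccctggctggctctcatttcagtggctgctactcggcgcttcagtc
Of the 5 kept members with a promoter in the table, 3 held that element (B2m, Cd59a and H2-T23; 2 in a shorter window, without Cd59a), as did 3.49% of all 27025 promoters, and none held GGGGAAA on either strand, found in 8.02% of all. In the list of MHC class II and the interferon response, 9 of 13 kept members rose and 1 fell. Ifit3, an antiviral protein, rose by 1.68 ± 0.07, Isg15, a ubiquitin-like modifier, by 0.98 ± 0.11, Irf1 by 0.84 ± 0.05 and Ifitm3 by 0.81 ± 0.08.

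Vascular genes went both ways. Of 15 kept endothelial genes, 4 rose and 7 fell. Ly6c1, a surface protein of brain endothelium, had 10.51 to 11.32 at day 60 and 8.12 to 8.54 at day 4 (2.61 ± 0.07). Slc2a1, the glucose transporter of the blood-brain barrier, rose by 1.17 ± 0.10, while Mfsd2a, its lipid transporter, fell by 0.77 ± 0.11. In mural cells and fibroblasts, 5 of 10 kept genes rose and 3 fell, led by Dcn (1.42 ± 0.12) and the smooth muscle actin Acta2 (1.41 ± 0.12), which had other probes at 0.38 to 0.71.

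Genes of the extracellular matrix were lower more often than higher. Of 26 kept genes (35 listed), 8 rose and 16 fell, with a median of -0.41 (-1.02 with normexp background correction). Ncan, the proteoglycan neurocan, had 8.18, 8.70 and 10.21 at day 60, against a lowest value of 10.75 and a median of 11.57 at day 4 (-2.57 ± 0.17, adjusted p = 1.2e-13). Tnc, tenascin C, was detected on 1 of 13 day 60 arrays and 15 of 15 day 4 arrays, with 7.01 to 7.37 and 8.44 to 9.99 (-1.86 ± 0.11). Basement membrane collagens fell as well, Col4a1 by 1.93 ± 0.14 and Col4a2 by 1.86 ± 0.16. None of the 4 genes overlapped between the ages. A pair of link proteins, which tie hyaluronan to proteoglycans, rose. Hapln2, found at nodes of Ranvier, was detected on no day 4 array and was at least 4.07-fold higher at day 60, and Hapln4, a link protein of perineuronal nets, was at least 2.39-fold higher.

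Cell cycle genes were lower almost throughout. Of 44 listed, 34 were kept, 30 fell and 1 rose, with a median of -0.86 (-1.72 with normexp), against 41.4% of probes lower on the whole array. Prc1, which bundles microtubules of the dividing spindle, had 7.36, 7.70 and 8.25 at day 60, against 10.04, 10.56 and 10.80 at day 4 (-2.73 ± 0.08, adjusted p = 5.9e-21). Cdk1, the kinase that starts mitosis, was detected on 2 of 13 day 60 arrays and all day 4 arrays, with 6.95 to 7.37 and 8.77 to 9.31 (-1.87 ± 0.06). Top2a, the topoisomerase of dividing cells, was detected on 1 of 13 day 60 arrays (-1.97 ± 0.06). Nusap1 fell by 1.55 ± 0.05, Mcm6, a helicase subunit of replication, by 1.54 and Cdc20, the activator of the anaphase-promoting complex, by 1.53. Ccnd2, the D-type cyclin of neural progenitors, had 8.59 to 11.15 at day 60 and 10.68 to 11.92 at day 4, and only XX+T pool 3 reached the day 4 range (-2.12 ± 0.18). Pcna and the inhibitor Cdkn1b did not pass the test.

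The promoters of 4 of these genes are shown because cell cycle genes are known to carry CCAAT boxes, the cell cycle homology region (CHR) and E2F sites. Capitals mark CCAAT, the CHR letters TTTGAA and, as its other form, TTCGAA, and the E2F letters TTTGGCGC and, as its other form, TTTCGCGC, each on either strand. Sequences are RefSeq's on GRCm38.p6, minus strand, for chr10:69352863-69353062 (Cdk1), chr11:99024180-99024379 (Top2a), chr4:118437294-118437493 (Cdc20) and chr1:128359656-128359855 (Mcm6).
Cdk1: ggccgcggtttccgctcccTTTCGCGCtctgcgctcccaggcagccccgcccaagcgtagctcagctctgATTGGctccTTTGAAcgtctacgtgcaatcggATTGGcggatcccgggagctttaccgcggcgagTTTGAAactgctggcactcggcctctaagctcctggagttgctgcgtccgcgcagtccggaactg
Top2a: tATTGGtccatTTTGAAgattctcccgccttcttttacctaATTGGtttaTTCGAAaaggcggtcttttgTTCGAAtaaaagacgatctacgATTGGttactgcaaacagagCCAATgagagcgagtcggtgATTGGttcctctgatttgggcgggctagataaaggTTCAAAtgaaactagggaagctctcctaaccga
Cdc20: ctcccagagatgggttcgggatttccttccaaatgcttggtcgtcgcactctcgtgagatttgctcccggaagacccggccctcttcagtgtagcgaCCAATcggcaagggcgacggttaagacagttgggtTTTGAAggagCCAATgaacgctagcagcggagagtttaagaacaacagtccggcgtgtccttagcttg
Mcm6: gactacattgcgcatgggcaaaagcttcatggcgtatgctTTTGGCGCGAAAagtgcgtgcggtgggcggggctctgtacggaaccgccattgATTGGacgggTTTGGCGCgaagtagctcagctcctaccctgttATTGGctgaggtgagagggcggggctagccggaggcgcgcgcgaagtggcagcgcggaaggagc
Of 28 kept members with a promoter in the table, 19 held CCAAT (67.9%, against 37.9% of all 27025 promoters), 11 a CHR (39.3%, against 19.4%) and 5 an E2F site (17.9%, against 0.833%). Cdk1 and Cdc20 hold a CCAAT upstream of a CHR, and Mcm6 holds overlapping E2F sites on opposite strands. These counts describe letters in a window and were not tested.

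Genes of DNA methylation were mostly lower. Of 19 listed, 12 were kept, 3 rose and 8 fell, with a median of -0.50. Uhrf1, which brings the maintenance methyltransferase to replicated DNA, was detected on 2 of 13 day 60 arrays and all 15 day 4 arrays, with 6.98, 7.25 and 7.83 against 8.81, 9.39 and 9.88 (-2.13 ± 0.10, adjusted p = 1.2e-16). Dnmt1, that methyltransferase itself, fell by 0.58 ± 0.08 and the de novo enzyme Dnmt3b by 0.55 ± 0.05, the second near the detection limit at day 60. The glycosylase Tdg, which removes oxidized methylcytosine, fell by 1.38 ± 0.07, Apex1, a later enzyme of base excision repair, by 1.08 ± 0.07, and Mbd1, a reader, by 0.88 ± 0.07, although other probes for Mbd1 had 0.02, 0.10 and -0.26, of which the fall passed. The 3 that rose were all Gadd45 stress proteins. Gadd45b had 8.12, 8.70 and 9.15 at day 60, against 7.20, 7.32 and 7.43 at day 4 (1.31 ± 0.06), Gadd45a rose by 0.99 ± 0.05 and Gadd45g by 0.55 ± 0.09, which did not pass with median centring (0.14, adjusted p = 0.21). Dnmt3a and the Tet enzymes are named only.

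Of 31 kept histone modifier genes, 9 rose and 17 fell. The deacetylase Hdac11 had 10.86 to 11.86 at day 60 and 8.61 to 9.47 at day 4 (2.36 ± 0.08), whereas Hdac2 had 11.31 to 12.12 and 12.73 to 13.22 (-1.46 ± 0.07). Kdm6b, a demethylase of histone H3, fell by 1.80 ± 0.12, the remodelling subunit Smarcc1 by 1.41 ± 0.09 and the Polycomb subunit Suz12 by 1.10. The mitochondrial deacetylase Sirt3 rose by 1.59 ± 0.10. Imprinted genes, 17 kept of 26, gave 4 rises and 11 falls. Nnat, a paternally expressed proteolipid of developing brain, had 9.73, 9.95 and 10.47 at day 60, against a median of 12.28 and a highest value of 12.49 at day 4, without overlap (-2.18 ± 0.08). Impact, a regulator of the translation kinase GCN2, moved the other way with 12.28 to 12.83 and 9.92 to 10.57 (2.17 ± 0.07). Grb10 fell by 0.79 ± 0.08 and Igf2 by 0.58 ± 0.12, and Gnas fell on its brightest probe (-0.78) and a second (-0.96) and rose on another (0.63).

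Growth factor genes were lower more often than higher (5 rose and 17 fell of 28 kept, median -0.22). Fgf1, a fibroblast growth factor, rose by 1.97 ± 0.07, and Igfbp6, an IGF-binding protein detected on no day 4 array, was at least 3.02-fold higher at day 60. The binding protein Igfbp4 fell by 1.28 ± 0.09, Fgf13 by 1.23 ± 0.07 and Pdgfra, the receptor of oligodendrocyte precursors, by 1.37 ± 0.09. Bdnf and its receptor Ntrk2 did not pass the test.

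Of steroid and thyroid hormone genes, 15 of 26 listed were kept, and the receptors Esr1, Esr2 and Nr3c1 are named only. Of the 15, 8 rose and 3 fell, with a median of 0.15. Hsd11b1, which regenerates active glucocorticoid, had 9.66, 10.93 and 11.64 at day 60, against 7.95, 8.25 and 8.79 at day 4 (2.62 ± 0.13, adjusted p = 6.4e-16). The glucocorticoid-induced genes Sgk1, Tsc22d3 and Per1 rose by 1.78 ± 0.08, 1.22 ± 0.08 and 1.19 ± 0.08, none with overlap. Fkbp5, another glucocorticoid-induced gene, had 7.46, 7.69 and 8.90 at day 60, against 8.03, 8.60 and 8.87 at day 4 (-0.70 ± 0.11). Crym, which binds thyroid hormone in the cytosol, rose by 0.72 ± 0.13, and the receptor Thra fell by 0.20 ± 0.05.

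Immediate early genes, which neurons switch on with activity, gave 11 rises and 3 falls among 16 kept. Arc had 9.11, 10.09 and 11.64 at day 60, against 7.83, 8.60 and 8.95 at day 4 (1.65 ± 0.18). Fos had 9.40 to 10.12 and 7.82 to 8.52 (1.61 ± 0.05), Npas4 rose by 1.58 ± 0.15 and Junb by 1.37 ± 0.10. Only Npas4 of these overlapped, through XX+T pool 3 with 8.05.

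Genes of energy metabolism went both ways. Glycolysis and lactate genes, 22 kept of 27, gave 10 rises and 7 falls. The aldolases led, Aldoc with 13.54 to 14.10 at day 60 and 12.14 to 12.73 at day 4 (1.36 ± 0.07) and Aldoa with 13.29 to 13.74 and 11.82 to 12.57 (1.32 ± 0.07). Hk1, the brain hexokinase, had -0.85 ± 0.15, and Pdha1, a subunit of pyruvate dehydrogenase, -0.76 ± 0.09. Gapdh, often used as a reference gene, had 13.86 to 15.04 at day 60 and 14.35 to 14.76 at day 4 (-0.35 ± 0.09). Ketone body, fatty acid and creatine genes gave 12 rises and 8 falls of 23 kept. Oxct1, which lets cells burn ketone bodies, had 11.16, 12.08 and 12.81 at day 60, against 13.16, 13.32 and 13.39 at day 4 (-1.24 ± 0.09), and Bdh1, of the same route, fell by 1.14. Acaca, the first enzyme of fatty acid synthesis, fell by 1.89 ± 0.13 and Fabp7, the fatty acid binder of radial glia, by 1.57 ± 0.13. Hadhb, of fatty acid oxidation, rose by 1.24 ± 0.08 and the desaturase Scd1 by 1.39 ± 0.11.

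Genes of cholesterol synthesis and transport were lower more often than higher. Of 30 listed, 23 were kept, 5 rose and 13 fell, with a median of -0.37. Sqle, squalene epoxidase, had 10.10, 10.45 and 11.01 at day 60, against 12.09, 12.47 and 12.67 at day 4 (-1.93 ± 0.07, adjusted p = 8.6e-19). Fdps fell by 1.65 ± 0.06, Nsdhl by 1.46 ± 0.08 (with -0.33 on 1 of its further probes) and Hmgcs1, the second step of the pathway, by 1.44 ± 0.06, each without overlap. Of the 5 that rose, Apod and Cyp46a1 led and the others (Insig1, Abcg1 and Npc2) had 0.21 to 0.33. Apod, a lipid carrier of glia, had 10.95 to 13.09 at day 60 and 8.26 to 9.37 at day 4 (3.15 ± 0.15), and Cyp46a1, which turns cholesterol into a form that leaves neurons, rose by 0.71. The letters TCACNCCAC, a sterol response element, stood in the promoter of 1 of 19 kept members with a promoter, Hmgcs1, and in 1.22% of all promoters.

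Respiratory chain genes rose. Of 76 listed, 70 were kept, 55 rose and 8 fell, with a median of 0.49, against 38.2% of probes higher on the whole array. XX+T pool 3 was the lowest day 60 array for 48 of the 70, and its mean over the list lay at -0.05 from the day 4 mean, against 0.41 to 0.78 on the other day 60 arrays. Without pools 3 and 6, 56 rose and 5 fell and the median was 0.57. Cox7b, a subunit of cytochrome c oxidase, had 8.25, 11.12 and 11.63 at day 60, against 7.90, 8.49 and 8.93 at day 4 (2.34 ± 0.22). Its day 60 arrays other than the pair had 10.79 or more, and the difference without the pair was 2.76. Atp5e, a subunit of ATP synthase, rose by 2.29 ± 0.23, Cox7a1 by 2.24 ± 0.20, Ndufb4 by 2.16 ± 0.22 and Ndufb2, like Ndufb4 of complex I, by 1.80 ± 0.18. Pool 3 lay within the day 4 range for Cox7a1, Ndufb4 and Ndufb2 and just below it for Atp5e, where it had 8.28 and the lowest day 4 array 8.29. Among the members that fell, Ndufa10 had -0.49 and Cox5a -0.26.

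The balance of rises and falls among protein synthesis genes depended on the scaling. Of 53 kept cytosolic ribosomal protein genes, 20 rose and 18 fell, with a median of 0.05, but with median centring 35 rose and 13 fell, with a median of 0.29, where the median of all genes was -0.22. XX+T pool 3 was the lowest day 60 array for 36. Rpl22 had 9.75 to 10.87 at day 60 and 12.43 to 12.98 at day 4 (-2.49 ± 0.07), Rps15a fell by 1.54 ± 0.09 and Rpl4 by 0.94 ± 0.07. Ribosomal protein genes have many near-identical pseudogene copies, so single probes are uncertain. Of 28 kept proteasome genes 13 rose and 6 fell. Psmc5 rose by 0.88 ± 0.05 with no overlap and Psma4 fell by 0.69 ± 0.09.

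RNA splicing factors fell. Of 39 listed, 27 were kept, 24 fell and 2 rose, with a median of -0.75 (-0.89 without pools 3 and 6). Hnrnpa1, a repressor of exon inclusion, had 8.10, 8.51 and 9.77 at day 60, against 10.59, 11.18 and 11.85 at day 4 (-2.62 ± 0.14, adjusted p = 1.6e-15), and a second probe had -0.97. Hnrnpa2b1 fell by 2.51 ± 0.15 (second probe -0.63), Srsf2 by 1.71 ± 0.09 (others -1.02 and -0.46) and the neuronal Elavl3 by 1.74 ± 0.13. Hnrnpk fell by 2.01 ± 0.12 on its brightest probe and had 0.13 on the other. The 2 members that rose were Mbnl2 (1.57) and Mbnl1 (1.43), the muscleblind proteins that switch fetal to adult exons.

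**Figure D4:**
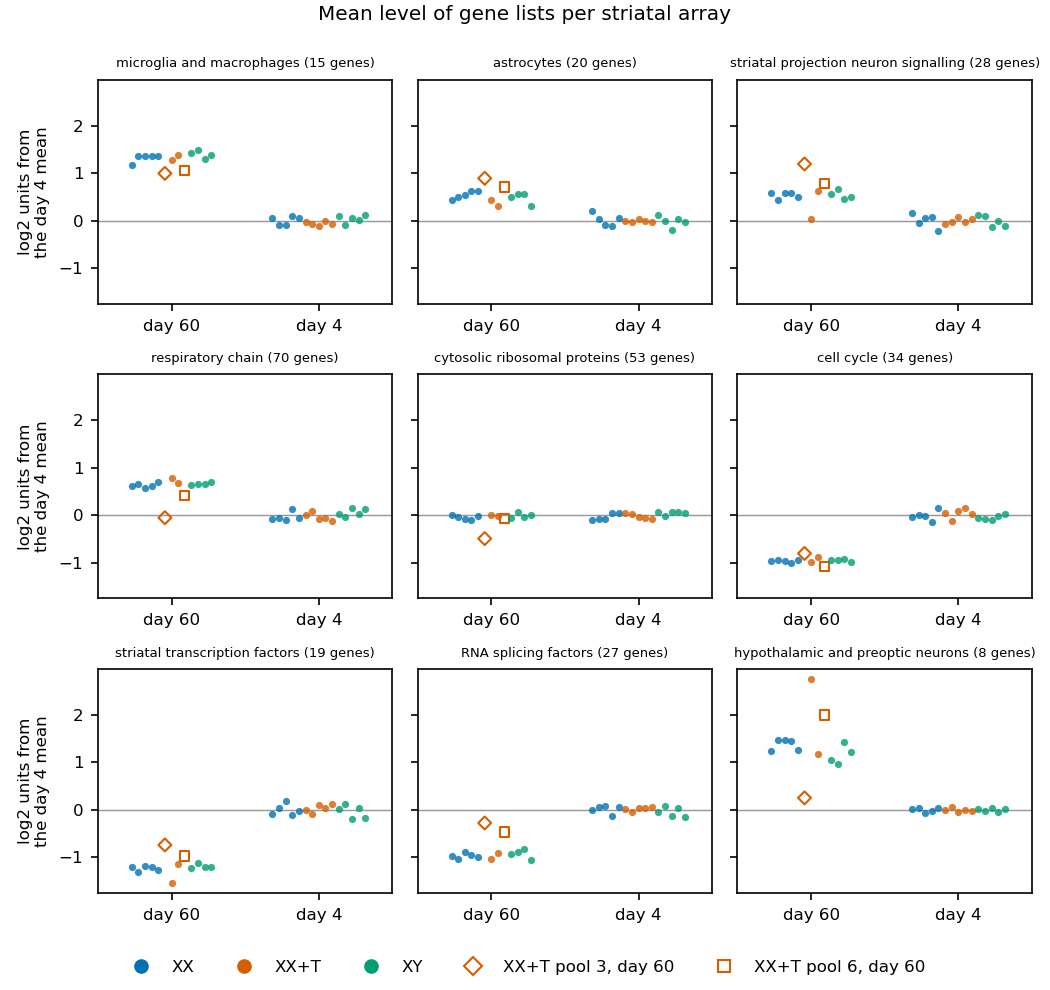
Mean log2 level of 9 gene lists on each striatal array, as the distance from the mean of the day 4 arrays (vertical axis, log2 units), day 60 left of day 4; colours are the treatment groups and open symbols the day 60 arrays XX+T pool 3 and pool 6. Respiratory chain genes lie at -0.05 on pool 3 and at 0.41 to 0.78 on the other day 60 arrays, and hypothalamic and preoptic neurons at 0.25 on pool 3 and 2.75 on XX+T pool 4.

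Antioxidant and metal-handling genes rose more often than they fell (16 and 4 of 24 kept, median 0.38). Trf, the iron carrier transferrin and a product of oligodendrocytes, rose by 4.40 ± 0.10. Mt3, the brain metallothionein, had 12.76, 14.26 and 14.31 at day 60, against 11.83, 12.16 and 12.73 at day 4 (1.87 ± 0.12), and pool 3 was its lowest day 60 array. Gpx4, which reduces lipid peroxides, rose by 1.74 ± 0.13 on its brightest probe and 0.40 on its second. Gsta4 and Gstm5, glutathione transferases, rose by 1.65 ± 0.08 and 1.28 ± 0.08, Mt2 by 0.90 and Mt1 by 0.78. The promoter of Mt2 is shown for its metal response elements, in capitals, which have the letters TGCACAC and its variants TGCACCC and then TGCGCAC and also TGCGCCC on either strand (RefSeq, GRCm38.p6, chr8:94172388-94172637, plus strand).
Mt2: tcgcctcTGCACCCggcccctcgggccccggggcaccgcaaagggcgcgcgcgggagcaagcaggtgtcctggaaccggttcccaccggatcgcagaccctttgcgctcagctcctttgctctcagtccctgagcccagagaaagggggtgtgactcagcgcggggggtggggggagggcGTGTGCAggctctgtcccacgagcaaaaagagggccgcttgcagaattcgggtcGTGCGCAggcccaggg
Of 22 kept members with a promoter, 6 held the element (27.3%, against 14.9% of all promoters), namely Mt1, Mt2, Mt3, Gstm1, Gstm5 and Gclm.

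The age difference was then set against that of the BNST/POA, to see where the striatum differs. The test of striatum minus BNST/POA called 2992 probes with a more positive difference in the striatum (21.8%) and 3505 with a more negative one (25.5%). On the BNST/POA side, day 60 XY replicate 6 had the lowest mean correlation with its own group (0.90), and XX+T replicate 6 had 0.94. The counts include these arrays. A setting without them, BNST/POA XX+T replicate 5 and the striatal pair is among the 7 alternatives in the closing section. Positive values were largest for Pvalb, with age differences of 6.41 in striatal and 2.56 in BNST/POA arrays (3.85 ± 0.28, adjusted p = 2.6e-16). For Scn4b they were 4.25 and 0.59 (3.66, adjusted p = 3.2e-24), and for Tesc 3.65 and 1.18. Cnksr2, a scaffold of the postsynaptic density, had 2.91 and 0.61, although its second striatal probe had 0.41, and Ccno, a cyclin-like protein, 0.79 and -1.58. Pmch (3.29 and 0.67), Slc17a6 (1.56 and -0.84) and Ntng1, a netrin-like adhesion protein (1.99 and -0.29), belong to the same set of 8, and the first pair are among the genes of other tissue above.

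Negative values were largest for Sytl4, with 0.06 in striatal and 3.30 in BNST/POA arrays (-3.24), and for the chemokine Cxcl14, with -1.23 and 1.90 (-3.12, adjusted p = 5.7e-32). Cxcl14 had a second striatal probe at -0.26. Sytl4 was detected on 1 of 13 day 60 striatal arrays and on no day 4 one. Oxt, the oxytocin precursor, had 0.73 and 3.09, Igfbpl1 -3.10 and -0.87, Nectin3 -3.05 and -0.87, Lypd1 -1.92 and 0.12, the cation channel Trpc7 -0.35 and 1.61, and the purine receptor P2ry1 -1.77 and 0.16.

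Among projection neuron genes the regions parted, as the chart of both regions shows. Hpca (1.66 in striatal and -0.20 in BNST/POA arrays), Rgs9 (1.35 and -0.57), Ptpn5 (1.33 and -0.35) and Cnr1 (0.69 and -0.19) had adjusted p of 7.7e-20 to 1.4e-10 for the difference between regions. The brightest probe for Ppp1r1b had 0.25 in striatal and 1.39 in BNST/POA arrays (adjusted p = 5.3e-07), but its other probes had 0.94 and 0.15 (adjusted p = 2.6e-06) and 0.34 and 0.07 (adjusted p = 0.042), so the sign of its difference between regions depends on the probe. The microglial C1qb (2.30 and 0.90) and Trem2 (2.24 and 0.92) rose in both regions and more in the striatum. Cdk1 (-1.87 and -1.89) and Prc1 (-2.73 and -2.67) had no detectable difference between regions. Of the 34 kept cell cycle genes, however, 18 were called with a more negative difference in the striatum and 3 with a more positive one. Over all 9560 genes these counts were 2237 and 2254. The median of the cell cycle list was -0.86 in striatal and -0.69 in BNST/POA arrays.

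**Figure D5:**
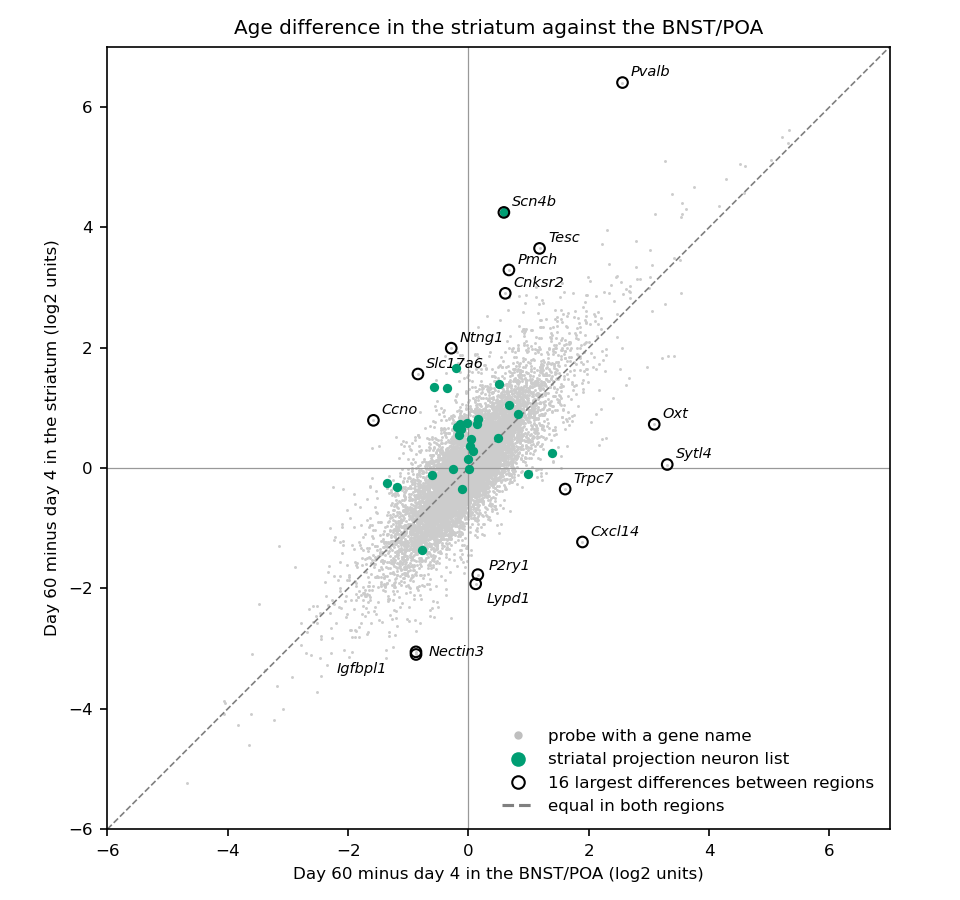
Age difference (day 60 minus day 4, log2 units) in the striatum (vertical axis) against the BNST/POA (horizontal axis) for all probes with a gene name (grey); green points are the 28 kept genes of striatal projection neuron signalling, and open circles the 16 genes with the largest differences between regions. Pvalb lies at 6.41 and 2.56 and Scn4b at 4.25 and 0.59, both above the dashed line of equal values, and Sytl4 at 0.06 and 3.30 below it.

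Whether the age difference depended on the treatment group was tested across the 3 groups. Of the probes kept, 0 were called (0%) by limma's moderated F test, 1076 had an unadjusted p under 0.05, and the smallest adjusted p was 0.534. Leaving out XX+T replicate 4 of day 60 gave 225 called probes, leaving out XX+T replicate 5 gave 1, and leaving out any other day 60 array gave 0. In both cases with calls, XX+T pools 3 and 6, which stood apart, stayed in the group, and pool 3 went against its label. Without pools 3 and 6 the same F test called 0 probes, with a smallest adjusted p of 0.251. What the 225 calls reflect was not tested. Signs of the age difference were unlike among XX+T, XX and XY for 237 of the 10919 called probes. The 5 genes with the smallest p were Taldo1, Tfb2m, Gtdc1, Tex10 and Exosc5, of which Exosc5, a subunit of the RNA exosome, had the largest age difference (1.28 ± 0.11).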

How the data were processed

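RNA from pools of 3 mice was hybridised to Illumina mouse bead arrays, 57 in all, of which 28 held striatum. The authors deposited a table of probe intensity per array, not normalized, with a detection p-value for each probe and array, and a table of normalized log2 values of the same arrays. Intensities were here log2-transformed and quantile normalized over the 57 arrays; the values differed from the deposited log2 table by at most 5.0e-09. Of 25697 probes, 13731 were kept, those that 20 or more arrays detected at p under 0.05. Each gene was read from its brightest kept probe, named through the platform annotation. Several probes were kept for 2462 genes, and 201 genes had probes called in opposite directions. Arrays were matched to samples through their column codes. The 114 columns of bead counts and bead standard errors were not used.

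Striatal arrays were fitted with limma 3.58.1 (R 4.3.3) as means of age by treatment group, and day 60 minus day 4 was averaged over the 3 groups, with Benjamini-Hochberg adjustment over the probes kept. Age by region used all 57 arrays, and the fit was run on simulated data with independent noise. Such data hold no arrays that stand apart and no mice shared between regions, so they cannot show how the fit behaves there. Pools of the same number in both regions may come from the same mice. The fit treated them as independent, and this pairing was not modelled. Alternatives are given in the closing section. The members, gene lists and rules for naming genes were chosen with earlier results of these data known. Genes were drawn by rule from several sets. These were the 15 largest non-overlapping rises and falls outside the myelin and immature neuron lists, and the 5 largest called members of each list. Further sets were 5 lists in whole, the 8 largest region differences each way, the 5 smallest group by age p and reference genes. Not every gene of these sets is named above, and the 5 lists are given in part. Other list members were named after their values were seen. Replicates are pools, and the number of arrays limits the precision.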

Additional observations from a re-analysis of the deposited data

Results flagged for a closer look

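The age difference of 16 genes was flagged because it differed between regions by limma's test of striatum minus BNST/POA, and these are the 8 largest called differences each way. A more positive age difference in the striatum was found for Pvalb (3.85), Scn4b (3.66), Pmch (2.62), Tesc (2.47), Slc17a6 (2.40), Ccno (2.37), Cnksr2 (2.29) and Ntng1 (2.28). A more negative one was found for Sytl4 (-3.24), Cxcl14 (-3.12), Oxt (-2.36), Igfbpl1 (-2.23), Nectin3 (-2.18), Lypd1 (-2.04), Trpc7 (-1.96) and P2ry1 (-1.93). All 16 stayed called with the same sign under the 7 alternatives run for this comparison.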

How the results depend on the processing

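With median centring of the arrays as the only scaling, the median difference of all probes was -0.23 and 3271 probes rose and 7590 fell (30.1% of calls higher), against 5240 and 5679 (48.0%); every difference in that setting is relative to this shift. The list medians of GABA-A receptors (-0.13, against 0.12), glycolysis (-0.17, against 0.15), ketone bodies and fatty acids (-0.08, against 0.14) and mural cells (-0.11, against 0.19) turned negative there, that of cytosolic ribosomal proteins was 0.29 (0.05), with 35 rises and 13 falls (20 and 18), and that of the postsynaptic density 0.04 (0.38). Calls of Drd2, Actn2, Syndig1l, Grin2c and Gadd45g ended with it, and Pde10a, Pdyn, Taldo1 (-0.12) and Sytl4 (0.17) gained one. Further, the median of the endothelial list was 0.00 with the mean over a gene's probes (-0.13 with the brightest). With normexp background correction 4082 probes were called with a difference of at least 1, against 2194, and several list medians were larger in size, such as cell cycle (-1.72, against -0.86), extracellular matrix (-1.02, against -0.41), microglia (2.15, against 1.47), cholesterol (-0.73, against -0.37) and growth factors (-0.49, against -0.22). The cause of these shifts was not tested. The number called was 10919 in the fit described, 10917 with quantile normalization over the striatum alone, 10950 of 13776 with the deposited log2 table, 13336 of 25697 with no detection filter, 10754 with probes detected on 13 or more striatal arrays, 11293 with array weights, 10851 with all 57 arrays in the fit, 10920 with age as the only term and 11327 without day 60 XX+T pools 3 and 6. Within a group it was 9688 in XX, 7854 in XX+T and 9015 in XY. Leaving out each array in turn gave 10762 to 11205 called, 5144 to 5408 higher, 5608 to 5797 lower and 2074 to 2396 with a difference of at least 1. Group by age gave 0 to 225 calls when each day 60 array was left out. Of these, 225 were without XX+T pool 4 and 1 without pool 5, with pools 3 and 6 still in the group, and leaving out that pair gave 0.

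Pools of 1 number did not pair across the ages (correlations of their deviations -0.32 to 0.41). With the pool number as a block, 10587 probes were called (5063 higher, 5524 lower) and none for group by age. Of the genes named, 4 changed sign: Taldo1 (-0.04) was 0.0013 with array weights and 0.29 in XX alone, Pde10a (-0.01) was 0.011 with the block, 0.0067 in XX+T alone and 0.0079 in XY alone and ran between -0.12 and 0.086 with an array left out (-0.53 with median centring), Pdyn (-0.12) was 0.032 in XX+T alone, and Tfb2m (-0.25) was 0.080 in XX+T alone. The block also ended the call of Slc12a5 (0.17, limma adjusted p = 0.057). The cause of these changes was not tested. The 16 genes with the largest differences between regions kept direction and call in each of the 7 alternatives run. With a shorter promoter window, CCAAT was in 18 of 28 cell cycle promoters, CHR in 10 and E2F in 5, and the interferon-stimulated element in 2 of 5 MHC class I and complement promoters. The setting without XX+T pool 3 alone and the lists under quantile normalization over the striatum were chosen after seeing the data. No background was subtracted in the fit described, which compresses the differences of dim probes.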
